A study of Mus musculus with 35 samples.

Results

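The transcripts described here encode the 7 inhibitors of cyclin-dependent kinases (CDKs) and the 3 D-type cyclins of the mouse, 10 of the 33292 genes in the expression table. They were selected by symbol, each matched to its Ensembl identifier. No threshold on a measured value was applied, but the choice was made with earlier results of these data known. Podocytes, the epithelial cells that cover the outer side of the glomerular capillaries, were sorted from 35 mice, and each mouse was sequenced as a library of its own. Every animal carried a floxed allele of Lmx1b, which encodes a LIM homeodomain transcription factor of the podocyte. The same animals all carried a doxycycline-inducible Cre recombinase of the podocyte (tetO::Cre, LC-1) and the mT/mG reporter, which switches a cell from red to green fluorescence after Cre has acted. The floxed allele loses homeodomain exons upon recombination, so that the second allele alone remained intact in the green cells that were sorted. This second allele was wild type (Lmx1b+/lox, listed as WT for the single samples and termed control here), carried a missense mutation in the LIM-A domain (Lmx1bH77L/lox, H77L) or carried one in the LIM-B domain (Lmx1bC118F/lox, C118F).

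All animals received 2 mg/ml doxycycline in their drinking water for 7 days at an age of 7 to 10 weeks. From the start of doxycycline they were injected every other day with 0.3 µg/g of the proteasome inhibitor bortezomib or with its solvent DMSO. There were 6 mice in each of 5 groups and 5 mice in the bortezomib-treated C118F group, giving 6 groups of genotype and treatment. Cre was induced by doxycycline in this model, so that the floxed allele was lost in adult podocytes, and every group, controls included, had been exposed to Cre and doxycycline. Expression is given in TPM, a unit in which the values of a mouse add up to 1000000 after division by gene length. Whole reads recovered from the TPM steps gave 5264483 reads for the shallowest library, mouse 2 of the bortezomib-treated C118F group, and 14033453 to 24137231 reads for the others.

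Of 19 podocyte marker genes, 18 or 19 were above 1 TPM in every mouse. Their summed level was lower in the knock-in lines, with 27068 to 42080 TPM in DMSO-treated control mice, 8758 to 14559 TPM in H77L mice and 7627 to 16843 TPM in C118F mice. The summed level of 15 endothelial and mesangial markers ran from 31.0 to 145 TPM in these controls, from 194 to 594 TPM in H77L mice and from 88.0 to 2787 TPM in C118F mice, where mouse 1 held the highest value. The 12 parietal epithelial markers summed to 129 to 241, 217 to 449 and 196 to 319 TPM in the same order, the 13 tubule markers to 23.5 to 1576, 12 to 517 and 5.82 to 207 TPM, and the 14 leukocyte markers to 7.74 to 509, 15.6 to 80.1 and 12.1 to 133 TPM. Mouse 2 of the DMSO-treated control group had the tubule sum of 1576 TPM, and mouse 6 of the DMSO-treated H77L group had the lowest podocyte sum of its group. Several differences of members are also given without 1 of these mice. Lmx1b itself was present at 69.6 ± 14.7 TPM (SD, n = 6) in DMSO-treated control mice, 119.5 ± 19.7 TPM in H77L mice and 101 ± 49.8 TPM in C118F mice. A value for the whole gene does not separate the mutated, floxed and wild-type alleles, so it does not check the genotype labels.

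Cells enter the division cycle when D-type cyclins activate CDK4 and CDK6, which phosphorylate the retinoblastoma protein and release E2F transcription factors. The INK4 inhibitors (Cdkn2a to Cdkn2d) bind CDK4 and CDK6, whereas the Cip/Kip inhibitors (Cdkn1a, Cdkn1b and Cdkn1c, encoding p21, p27 and p57) bind cyclin-CDK complexes more broadly. The mature podocyte is a cell that normally does not divide, and p57, the product of a maternally expressed imprinted gene, is a classical marker of this state.

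The upstream sequence of Cdkn1a is shown because this gene differed between control and knock-in podocytes in both lines under DMSO, as the inhibitor that was higher. The sequence covers the 250 bases before the start of the canonical transcript (GRCm39, GENCODE vM39) at chr17:29312488-29312737, read 5′ to 3′ on the plus strand, which is that of the gene. Capitals mark GC boxes (GGGCGG).
Cdkn1a: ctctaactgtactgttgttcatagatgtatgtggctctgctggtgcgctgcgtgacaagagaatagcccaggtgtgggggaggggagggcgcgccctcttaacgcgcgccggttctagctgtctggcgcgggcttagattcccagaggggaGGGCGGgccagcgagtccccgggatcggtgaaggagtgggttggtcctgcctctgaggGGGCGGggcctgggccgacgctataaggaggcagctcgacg

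The Cdkn1a sequence held 2 GC boxes, and 64.4% of its bases were G or C. Both strands were searched in the same window of 21770 genes, of which 36.3% held GGGCGG. The letters CCAAT occurred in 36.5% of all windows, the homeodomain core TAATTA in 5.18%, TATAAA in 11.9% and the E box CACGTG in 6.26%, and none of these was found in the Cdkn1a window. E2F-type letters (TTTCCCGC, TTTGGCGC or TTTCGCGC) occurred in 1.87% of all windows and among the members once each in those of Cdkn2d and Ccnd3. These matches describe letters in a window and not bound sites.

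Cdkn1c, the gene of p57, was the member that differed most, with a low level in every knock-in mouse. In DMSO-treated control podocytes, Cdkn1c ranged from 4148 to 5610 TPM with a median of 4970 TPM, which placed its mean at rank 12 of all genes. In DMSO-treated H77L mice the values were 76.4, 191, 233, 248, 277 and 285 TPM, and in C118F mice they ran from 146 to 382 TPM with a median of 222 TPM. Not a single knock-in mouse came near the lowest control mouse, and the mean of Cdkn1c dropped to rank 806 in H77L mice and rank 729 in C118F mice. The differences were -4.59 ± 0.25 (log2 of TPM + 1, SE, adjusted p = 9.73e-09) for H77L and -4.45 ± 0.23 (adjusted p = 1.34e-08) for C118F. Without mouse 6 of the H77L group, at 76.4 TPM, the H77L difference was -4.32 (adjusted p = 1.32e-11). In bulk RNA, fewer cells that express a gene and less RNA per cell cannot be told apart. Related to the podocyte markers, Cdkn1c amounted to 14.8 ± 1.66 TPM for every 100 TPM of podocyte marker sum in DMSO-treated control mice (SD, n = 6), 1.70 ± 0.48 in H77L mice and 2.22 ± 1.18 in C118F mice, so it was lower than in control mice on this scale as well.

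**Figure D1:**
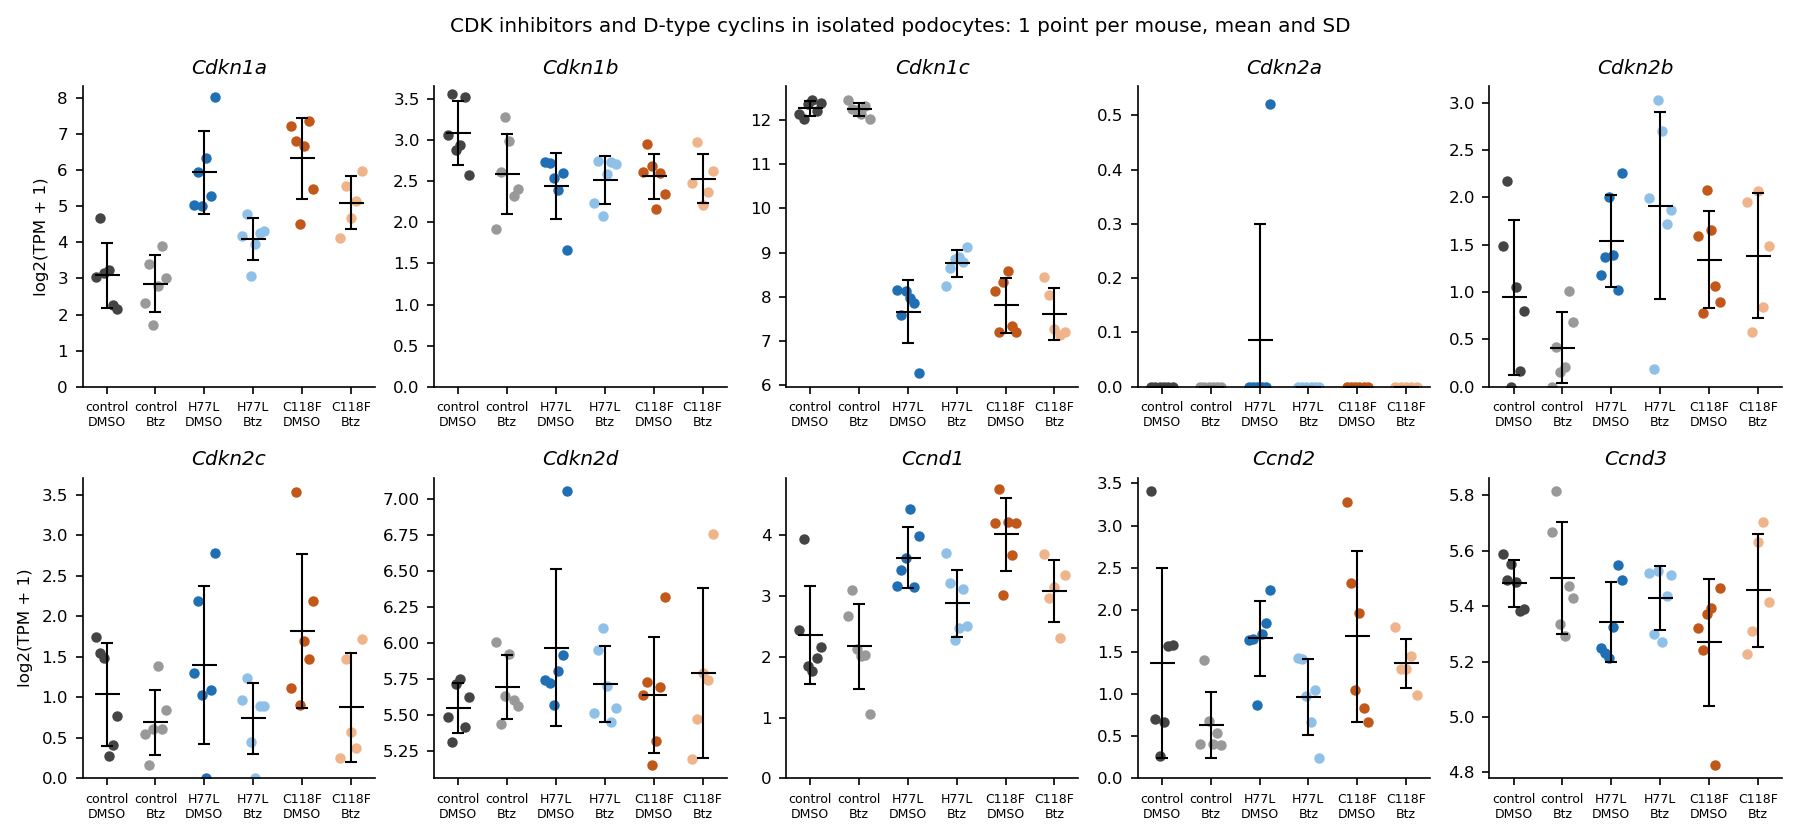
Levels of the 10 genes in each mouse, with 1 panel per gene and log2(TPM + 1) on the vertical axis, whose range differs between panels and does not always start at 0. Points are mice and bars are the mean ± SD of the 6 groups. Cdkn1c of the knock-in mice lies far below both control groups, Cdkn1a and Ccnd1 lie higher under DMSO, and Cdkn2a is at 0 in 34 of 35 mice.

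The second Cip/Kip inhibitor, Cdkn1a, which encodes p21 and is a classical target of p53, moved in the opposite direction. It was a low-level transcript in DMSO-treated control mice, with 3.46 TPM in the lowest mouse, a median of 7.57 TPM and 24.6 TPM in the highest. In H77L mice it ranged from 31.4 to 258 TPM with a median of 49.5 TPM, and in C118F mice from 21.6 to 163 TPM with a median of 106 TPM. All H77L mice lay above all control mice, whereas the lowest C118F mouse fell just below the highest control mouse. Cdkn1a rose by 2.85 ± 0.50 in H77L mice (adjusted p = 0.000385) and by 3.25 ± 0.49 in C118F mice (adjusted p = 0.00019). The highest control value was that of mouse 2, the mouse with the high tubule sum. Without this mouse the differences were 3.17 (adjusted p = 0.000151) and 3.57 (adjusted p = 8.12e-05). The highest H77L value belonged to mouse 6, the mouse with the lowest Cdkn1c level, and without it the difference was 2.44 (adjusted p = 0.000236). The mean rank of Cdkn1a moved from 7989 in DMSO-treated control mice to 2185 in H77L and 1870 in C118F mice. Even so, its level stayed far below that of Cdkn1c in control podocytes. The annotated genes Gm64878 and Dino overlap the span of Cdkn1a on the other strand. The strand setting of the read counting is not given in the sources used here. Reads of overlapping antisense transcripts therefore cannot be told apart from those of Cdkn1a.

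The third member of the family, Cdkn1b (p27), was expressed at a few TPM in all groups. It ranged from 4.95 to 10.8 TPM with a median of 7.01 TPM in DMSO-treated control mice, from 2.17 to 5.68 TPM with a median of 4.95 TPM in H77L mice and from 3.48 to 6.73 TPM with a median of 5.10 TPM in C118F mice. Control and knock-in mice overlapped in both lines. The difference was -0.64 ± 0.22 for H77L (adjusted p = 0.0261), a call that was lost without mouse 2 of the control group (-0.55, adjusted p = 0.0587), without its mouse 5 (adjusted p = 0.0558) or without mouse 6 of the H77L group (-0.49, adjusted p = 0.0505). For C118F it was -0.53 ± 0.20 and did not pass (adjusted p = 0.0631).

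Among the INK4 inhibitors, Cdkn2d (p19) was the member that podocytes expressed at a sizeable level, and neither line differed from control in it beyond the threshold. DMSO-treated control mice had 38.8 to 52.8 TPM with a median of 46.1 TPM, H77L mice 46.5 to 132 TPM with a median of 53.7 TPM and C118F mice 34.6 to 78.8 TPM with a median of 49.8 TPM. The groups overlapped. The difference of H77L from control was 0.42 (95% interval -0.01 to 0.85, adjusted p = 0.107), and without mouse 6, at 132 TPM, it was 0.20 (adjusted p = 0.129). For C118F it was 0.09 (adjusted p = 0.716), and its sign turned without mouse 6 of the C118F group (-0.04).

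The remaining INK4 genes were near the limit of detection. No read of Cdkn2a, whose row sums the transcripts of p16 and of the overlapping Arf, was found in 34 of 35 mice. A count of 0 allows up to 3 reads, which corresponds to 0.386 to 0.671 TPM in 33 of these mice and 1.75 TPM in the shallowest library. The remaining mouse, number 6 of the DMSO-treated H77L group, had 3 reads or 0.435 TPM. Cdkn2b (p15) ranged from 0 to 3.53 TPM with a median of 0.904 TPM in DMSO-treated control mice, from 1.03 to 3.79 TPM with a median of 1.61 TPM in H77L mice and from 0.711 to 3.23 TPM with a median of 1.55 TPM in C118F mice, with overlapping groups. Its difference in H77L mice was 0.59 (adjusted p = 0.183) and became a call only without mouse 2 of the control group (0.84, adjusted p = 0.0429). Cdkn2c (p18) had medians of 1.24, 1.29 and 2.01 TPM in the same order, with single mice from 0 to 10.6 TPM, and it did not pass the filter of more than 1 TPM in every mouse of a group.

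The D-type cyclins did not move together. Ccnd1 (cyclin D1) ranged from 2.41 to 14.4 TPM with a median of 3.22 TPM in DMSO-treated control mice, from 7.87 to 20.7 TPM with a median of 10.6 TPM in H77L mice and from 7.11 to 26.2 TPM with a median of 17.5 TPM in C118F mice. The groups overlapped through a single control animal, mouse 2, which had 14.4 TPM while the next highest had 4.41 TPM. Ccnd1 rose by 1.27 ± 0.34 in H77L mice (adjusted p = 0.00718) and by 1.66 ± 0.36 in C118F mice (adjusted p = 0.00324). Leaving out the control mouse with the high tubule sum raised these values to 1.59 (adjusted p = 0.000161) and 1.97 (adjusted p = 0.000147), while with the mouse number as covariate the H77L call was lost (1.22, adjusted p = 0.063). Part of the gene lies opposite to the coding gene LTO1 on the other strand, with the same limit on counting as for Cdkn1a. Other members overlap annotated genes as well. Cdkn1c overlaps the long noncoding RNA genes 4933417O13Rik on its own strand and Gm44732 on the other. Ccnd3 overlaps the coding gene Bysl on the other strand.

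Ccnd3 (cyclin D3) was the most abundant D-type cyclin of the podocyte and stayed within a narrow range. It had 40.7 to 47.1 TPM with a median of 44.0 TPM in DMSO-treated control mice, 36.1 to 45.8 TPM with a median of 38.1 TPM in H77L mice and 27.4 to 43.2 TPM with a median of 39.7 TPM in C118F mice. The differences of -0.14 (95% interval -0.32 to 0.04, adjusted p = 0.204) and -0.21 (95% interval -0.46 to 0.04, adjusted p = 0.184) did not pass. Ccnd2 (cyclin D2) had medians of 1.30, 2.21 and 1.98 TPM, with single mice between 0.204 and 9.64 TPM, and did not pass the filter.

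Of the 10 members, 7 could be tested in H77L against control mice under DMSO and 4 were called, Cdkn1a and Ccnd1 as higher and Cdkn1b and Cdkn1c as lower. In this comparison 44.8% of the 10964 genes tested were called, 22.4% as higher and 22.4% as lower. For Cdkn1c and Cdkn1a the groups did not overlap, which was the case for 21.1% of all genes tested. With C118F, 3 of 6 members tested were called, Cdkn1a and Ccnd1 as higher and Cdkn1c as lower, against 30.4% of 10899 genes (13.7% higher, 16.6% lower), and Cdkn1c was the member without overlap (13.7% of all genes). The median difference of the members tested was 0.42 in H77L and -0.06 in C118F mice, and over all genes it was -0.01 and -0.06. Both lines were compared with the same control mice, so the 2 comparisons are not independent. At the thresholds of the study (adjusted p under 0.001 and an absolute difference above 2), Cdkn1a and Cdkn1c were called in each line, where 2.17% of all genes passed in H77L and 2.27% in C118F mice.

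**Figure D2:**
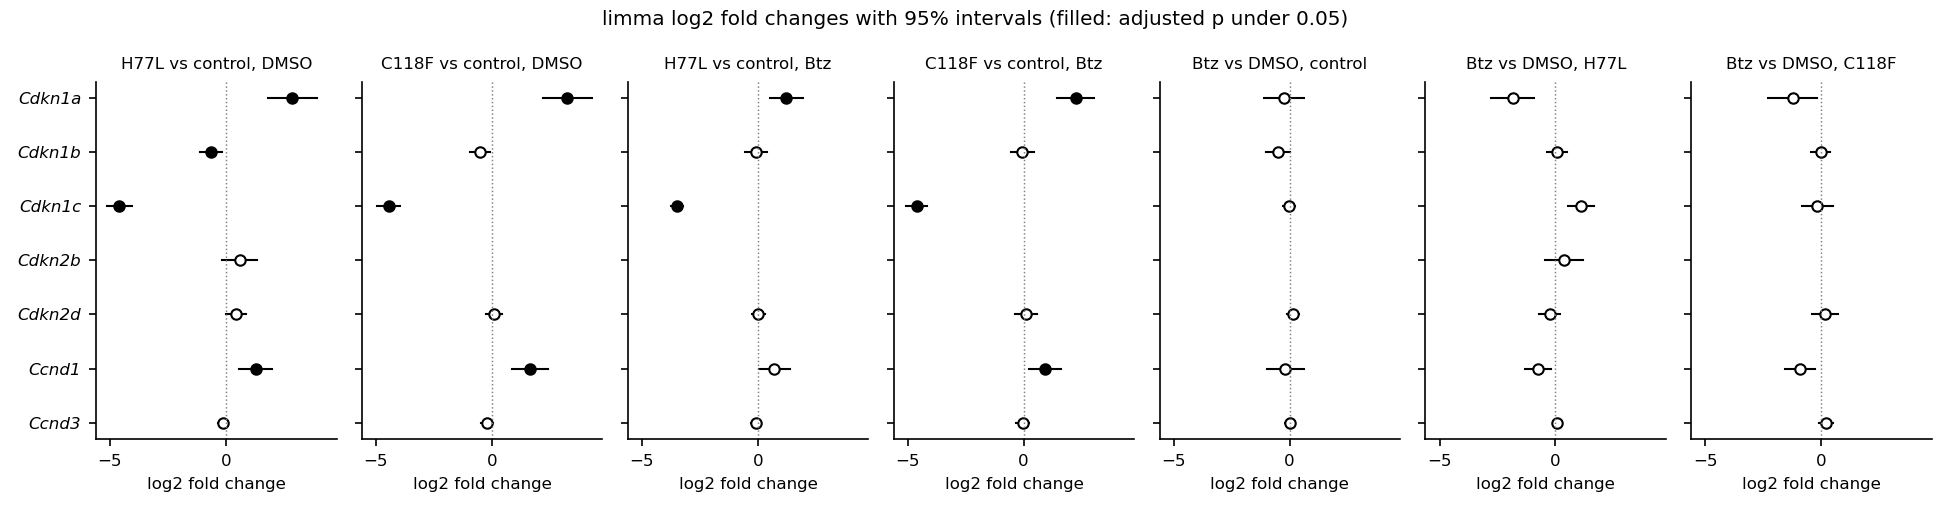
Differences in log2(TPM + 1) for the members tested in 7 comparisons, with 95% intervals from limma and filled symbols for an adjusted p under 0.05. In the DMSO comparisons with control mice Cdkn1c lies at -4.59 and -4.45 and Cdkn1a at 2.85 and 3.25, and no member is filled where bortezomib is compared with DMSO.

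Adding up the 7 inhibitors shows how far the family rested on Cdkn1c. Their sum was 4980 ± 549 TPM in DMSO-treated control mice (SD, n = 6), of which Cdkn1c made up 98.7%. It was 377 ± 56.5 TPM in H77L mice and 399 ± 94.7 TPM in C118F mice. Within this smaller sum Cdkn1c still held 60.2% and 58.8% on average, Cdkn1a 20.4% and 24.5%, and Cdkn2d 17.1% and 14.0%. These shares varied widely between mice, from 16.0% in mouse 6 to 76.2% for Cdkn1c in H77L mice and from 42.2% to 83.1% in C118F mice. Cdkn1a had contributed 0.197% in DMSO-treated control mice and Cdkn2d 0.926%.

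The D-type cyclins summed to 51.3 ± 6.93 TPM in DMSO-treated control mice, 54.1 TPM in H77L mice and 57.2 ± 10.6 TPM in C118F mice. Ccnd3 made up 86.1% of this sum in control, 73.9% in H77L and 67.3% in C118F mice, and Ccnd1 made up 9.36%, 22% and 27.9%. The sum of inhibitor transcripts was 99.3 ± 21.1 times that of the D-type cyclins in DMSO-treated control mice, 6.99 ± 0.837 times in H77L mice and 7.18 ± 2.05 times in C118F mice. These ratios compare transcripts per length and not protein.

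**Figure D3:**
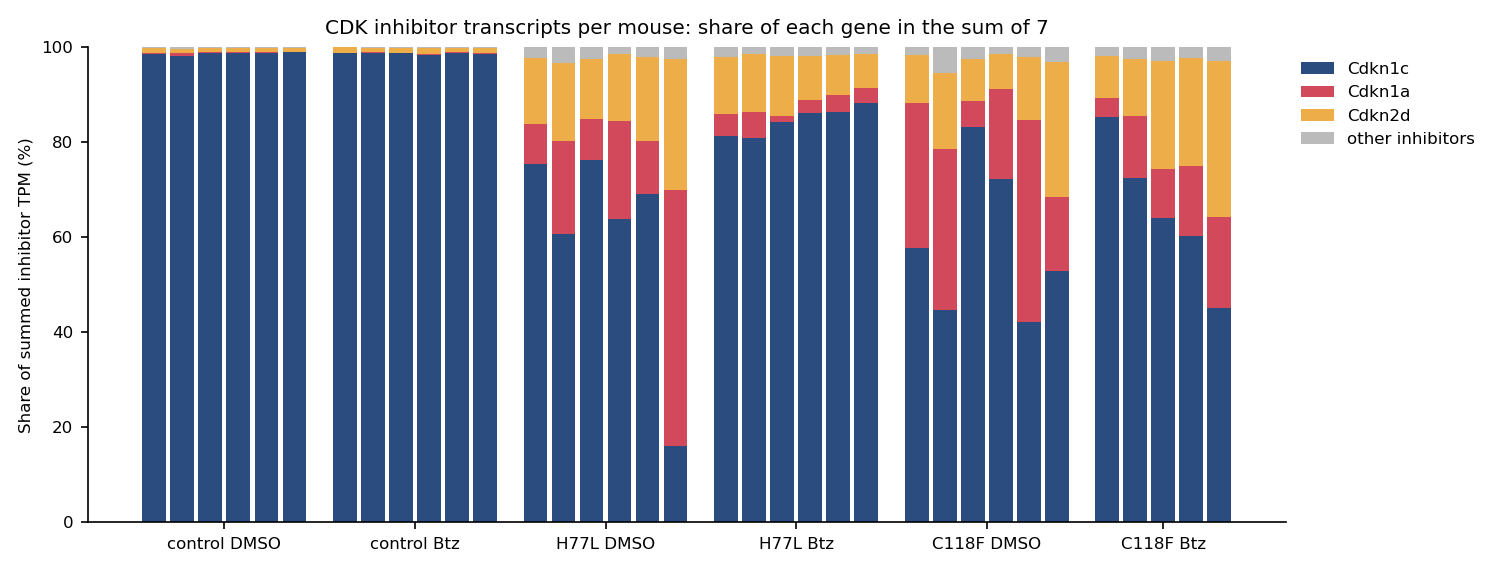
Share of each mouse's summed inhibitor TPM, in percent on an axis from 0, held by Cdkn1c, Cdkn1a, Cdkn2d and the other inhibitors, with 1 bar per mouse. Control bars are almost entirely Cdkn1c (98.7% on average), and in DMSO-treated knock-in mice Cdkn1a and Cdkn2d take up visible parts, most of all in mouse 6 of the H77L group.

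The same genotypes were also compared under bortezomib. Cdkn1c ranged from 4156 to 5571 TPM with a median of 4834 TPM in bortezomib-treated control mice and from 300 to 557 TPM with a median of 449 TPM in H77L mice, and it was 139, 146, 154, 261 and 348 TPM in the 5 C118F mice. Again the control mice lay far apart from both lines, with differences of -3.48 ± 0.13 for H77L (adjusted p = 2.66e-11) and -4.62 ± 0.21 for C118F (adjusted p = 4.4e-09). Cdkn1a ranged from 2.25 to 14.0 TPM with a median of 6.51 TPM in control mice and from 7.35 to 26.6 TPM with a median of 17.8 TPM in H77L mice, and it was 16.3, 24.7, 34.3, 46.7 and 61.9 TPM in C118F mice. It was above control in both lines, by 1.24 ± 0.33 in H77L with overlap (adjusted p = 0.0124) and by 2.24 ± 0.38 in C118F without overlap (adjusted p = 0.00052). With all 35 mice in 1 fit the H77L difference of Cdkn1a did not pass (adjusted p = 0.068).

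Ccnd1 was between 1.09 and 7.61 TPM with a median of 3.25 TPM in bortezomib-treated control mice, between 3.85 and 12.1 TPM with a median of 6.16 TPM in H77L mice and at 3.96, 6.81, 7.85, 9.14 and 11.9 TPM in C118F mice. The groups overlapped. Its difference of 0.71 in H77L mice did not pass (adjusted p = 0.117), and that of 0.92 in C118F mice passed narrowly (adjusted p = 0.0484) and was lost in 8 of 11 fits that left out a mouse (highest adjusted p = 0.110). It was also lost with voom on the recovered reads (adjusted p = 0.0621), without the filter (adjusted p = 0.132) and with most other settings. Cdkn1b, Cdkn2d and Ccnd3 differed from control by -0.07 to 0.10 in both lines, and none of these differences passed the test. In total, 2 of 6 members tested were called in H77L mice, where 23.6% of 10805 genes were called (12.5% higher, 11% lower), and 3 of 6 in C118F mice, where 27.5% of 10916 genes were called (15.1% higher, 12.4% lower). The groups without overlap, those of Cdkn1c in both lines and of Cdkn1a in C118F mice, compare with 12.1% and 15.7% of all genes.

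Of the low-level members, Cdkn2b ran from 0 to 1.01 TPM in bortezomib-treated control mice and from 0.137 to 7.15 TPM in H77L mice, and it was 0.491, 0.788, 1.80, 2.86 and 3.21 TPM in C118F mice. Without the filter on low values, Cdkn2b was higher in H77L mice by 1.5 (adjusted p = 0.0316). Ccnd2 had 0.317 to 1.65 TPM in control mice and 0.992 to 2.46 TPM in C118F mice, a difference of 0.73 without the filter (adjusted p = 0.0474). Both rows were left out of the filtered fit. Cdkn2b held few reads, 0 to 8 in these control mice and 1 to 51 in H77L mice. Ccnd2 held 14 to 98 reads in these control mice and 20 to 140 in C118F mice.

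Whether bortezomib itself went with a change of the members was asked within each genotype. In control mice, 0 of 6 members tested were called by limma, 0 had an unadjusted p under 0.05 and 0 were called by voom, the variant of limma for counts, on the recovered reads, while 0% of 10659 genes were called and 8.66% had an unadjusted p under 0.05. Their differences ran from -0.50 for Cdkn1b to 0.14. In H77L mice, Cdkn1c was 300 to 557 TPM under bortezomib against 76.4 to 285 TPM under DMSO, without overlap, and Cdkn1a was 7.35 to 26.6 TPM against 31.4 to 258 TPM, also without overlap. The differences were 1.09 ± 0.26 for Cdkn1c (unadjusted p = 0.000855, adjusted p = 0.0557) and -1.85 ± 0.43 for Cdkn1a (unadjusted p = 0.000712, adjusted p = 0.0513), both just short of the threshold. Mouse 6 of the DMSO group mattered here, since without it both were called, at 0.82 (adjusted p = 0.0238) and -1.43 (adjusted p = 0.0399).

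Thus 0 of 7 members tested in H77L mice were called by limma and 0 by voom, while 3 had an unadjusted p under 0.05 (Cdkn1a, Cdkn1c and Ccnd1, the last at -0.75). Over all 10813 genes 1.16% were called, 20% had an unadjusted p under 0.05 and the groups did not overlap for 2.38%. In C118F mice 0 of 6 members were called by limma and 0 by voom, against 0% of 10814 genes, and 5.86% of the genes had an unadjusted p under 0.05. The 2 members with an unadjusted p under 0.05 were Cdkn1a (-1.24, adjusted p = 0.813) and Ccnd1 (-0.93, adjusted p = 0.784). Cdkn1c differed by -0.19 in this line (95% interval -0.85 to 0.48, adjusted p = 0.905).

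The responses to bortezomib were then compared with each other. The change of Cdkn1c in H77L mice exceeded that in control mice by 1.11 ± 0.30 (unadjusted p = 0.00106, adjusted p = 0.091) and that in C118F mice by 1.28 ± 0.44 (unadjusted p = 0.00748, adjusted p = 0.65). The change of Cdkn1a in H77L mice was lower than that in control mice by a difference of -1.62 (unadjusted p = 0.0191, adjusted p = 0.185). By limma and by voom, 0 of 7 members were called for H77L against control, 0 of 6 for C118F against control and 0 of 7 for H77L against C118F, where 2, 0 and 1 members had an unadjusted p under 0.05 and 0% of all genes were called each time. An unadjusted p under 0.05 was found for 18.2%, 5% and 7.6% of all genes in these tests. A different response of the lines was therefore not shown for any member.

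The lines themselves were close under DMSO. Between C118F and H77L mice 0 of 7 members were called by limma and 0 by voom, and 0 had an unadjusted p under 0.05, while 0% of 10809 genes were called and 3.85% had an unadjusted p under 0.05. Under bortezomib 1 of 6 members was called, against 0.972% of 10803 genes. This was Cdkn1c, which was lower in C118F mice by a difference of -1.14 ± 0.22 (adjusted p = 0.0266), with overlapping groups. The call was lost in 7 of 11 fits that left out a mouse (highest adjusted p = 0.0843) and reached an adjusted p of 0.137 without the filter on low values. Cdkn1a differed by 1.00 ± 0.32 in the opposite direction and did not pass (adjusted p = 0.176).

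Since the groups differed so strongly in Cdkn1c, it was also asked whether members varied with Cdkn1c among mice of the same group. For this, the group mean of log2(TPM + 1) was subtracted from each of the 35 mice, and 6 relations were tested by permutation with 100000 pairings. Pairings were drawn across groups, although the spread differed between groups. In DMSO-treated control and H77L mice the SD was 0.16 and 0.71 for Cdkn1c, and 0.17 and 0.54 for Cdkn2d. Groups that are wide in both genes weigh most, and the permutation p-values, which take the spreads as alike, can be too small. Over all 35 mice, deviations of Cdkn2d ran opposite to those of Cdkn1c, with r = -0.67 (permutation p = 3e-05, adjusted p = 0.00018) and rho = -0.52 (adjusted p = 0.0113). In DMSO-treated control mice they did not run opposite. Mouse 2 had the lowest deviation of both genes (-0.24 and -0.24) and mouse 4 the highest of both (0.20 and 0.20). Single groups were not tested. With median-of-ratios scaling of all 35 mice, r was -0.61 (permutation adjusted p = 0.00084) and rho was -0.40 (adjusted p = 0.109). Over all groups without the 2 mice farthest from the median of Cdkn1c, r was -0.48 (adjusted p = 0.0261) and rho was -0.42 (adjusted p = 0.0931).

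The relation of Cdkn1a to Cdkn1c (r = -0.47, permutation adjusted p = 0.0131, rho = -0.33, adjusted p = 0.167) did not hold without these mice (r = -0.26, adjusted p = 0.404) and therefore rested on them. For Cdkn1b, Cdkn2b, Ccnd1 and Ccnd3, r lay between -0.17 and 0.20 and no permutation p passed the adjustment. TPM of a mouse share a common total, and mouse 6 of the DMSO-treated H77L group, lowest in its group in podocyte markers and highest in parietal (449 TPM) and leukocyte markers (80.1 TPM), was among the extremes. The part of cell composition in these relations was not tested.

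**Figure D4:**
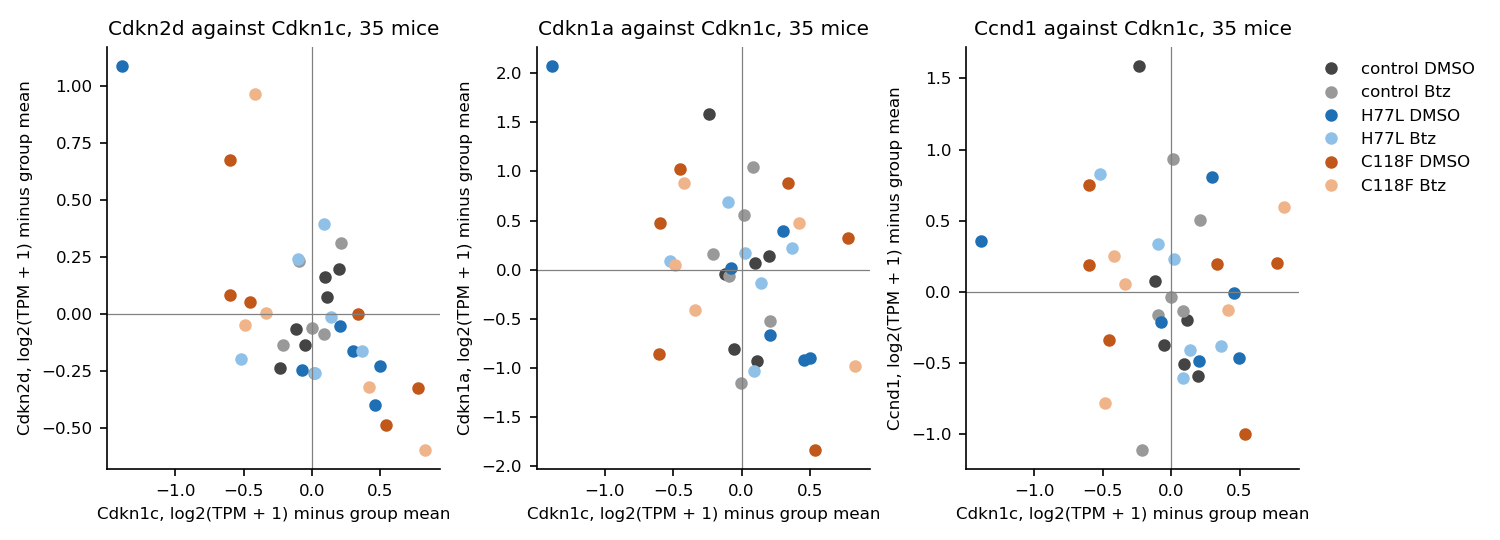
Deviation of Cdkn2d, Cdkn1a and Ccnd1 from the group mean against the deviation of Cdkn1c, both in log2(TPM + 1), with 1 point for each of the 35 mice and colours for the 6 groups. Over all 35 mice Cdkn2d falls with rising Cdkn1c (r = -0.67), though not among DMSO-treated control mice, and mouse 6 of the DMSO-treated H77L group is the point at the far left.

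The partners of the members in the cell-cycle machinery were examined as lists. Of 20 genes for CDKs, other cyclins and their regulators, 11 were tested, of which 3 rose and 1 fell in H77L and 3 rose in C118F mice under DMSO (median differences 0.31 and 0.36). The kinase Wee1, which restrains entry into mitosis, rose by 2.15 (adjusted p = 3.99e-05) and 2.21 (adjusted p = 0.000265), from a median of 8.90 TPM in control to 41.8 and 45.8 TPM. Ccnh, the cyclin of the CDK-activating kinase, rose by 0.31 (adjusted p = 0.025) and 0.36 (adjusted p = 0.0199). The partners of the D-type cyclins, Cdk4 (-0.01 and 0.05, adjusted p = 0.956 and 0.835) and Cdk6 (0.43 and 0.56, adjusted p = 0.106 and 0.0559), were not called under DMSO. Under bortezomib, Cdk6 was among the genes called in H77L mice against control, while Cdk4 was not, and neither was called in C118F mice.

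Of 20 genes of the retinoblastoma and E2F families and their complexes, 2 of 15 tested rose and 6 fell in H77L mice, and 0 of 14 rose and 5 fell in C118F mice (medians 0.05 and -0.35). E2f1, a transcription factor that drives genes of DNA replication, fell by 1.09 (adjusted p = 2.19e-05) and by 1.38 (adjusted p = 0.000182), from a median of 146 TPM in control to 62.9 and 55.5 TPM. Lin52, a subunit of the DREAM complex, differed by -0.58 and -0.59 (adjusted p = 0.000245 and 0.00168), and Tfdp2, a partner of E2F proteins, by -0.55 and -0.77 (adjusted p = 0.00795 and 0.00309).

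A list of 28 proliferation genes had 12 tested in each line, of which 6 rose in H77L and 4 in C118F mice, and none fell (medians 0.49 and 0.30). The 3 leading genes encode subunits of the replicative helicase, Mcm6 (1.81 and 2.01, adjusted p = 2.85e-05 and 1.05e-05), Mcm3 (1.21 and 1.04, adjusted p = 0.00094 and 0.00307) and Mcm2 (0.79 and 0.92, adjusted p = 0.00237 and 0.024). The median of Mcm6 was 10.5 TPM in control and 38.0 and 42.3 TPM in the lines. Tpx2, a spindle gene, was called in H77L mice (0.82, adjusted p = 0.0441) and did not pass the filter in C118F mice. Mki67, a marker of cycling cells, had medians of 0, 0.0443 and 0.161 TPM and Top2a of 0.0239, 0.716 and 0.685 TPM in DMSO-treated control, H77L and C118F mice, and neither passed the filter. Pcna, the sliding clamp of replication, was not called (0.06 and 0.14, adjusted p = 0.654 and 0.453).

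Among 25 targets of p53 other than the members, 8 of 22 tested rose and 3 fell in H77L mice, and 6 of 22 rose and 3 fell in C118F mice (medians 0.34 and 0.17). Plk2, a stress-induced kinase, rose by 4.28 and 4.52 (adjusted p = 1.46e-06 and 5.57e-07), from a median of 10.5 TPM to 158 and 193 TPM. Phlda3, an inhibitor of Akt, rose by 3.16 and 3.66 (adjusted p = 0.00092 and 0.000118), and Perp, a membrane protein of desmosomes, by 1.94 and 2.39 (adjusted p = 0.000152 and 0.000228). The p53 targets Trp53inp1 (-1.31 and -1.42), Rrm2b (-0.49 and -0.57) and Ei24 (-0.57 and -0.54) fell in both lines.

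Regulators of p27, the FOXO factors, Akt kinases and the SCF ligase among 16 genes, had 3 of 14 tested higher and 1 lower in each line (medians 0.17 and 0.10). Rbx1, the RING subunit of SCF ligases, differed by -0.48 and -0.41 (adjusted p = 0.000171 and 0.0155). Regulators of D-type cyclins among 18 genes had 3 of 16 tested higher and 3 lower in H77L mice and 4 of 16 higher and 3 lower in C118F mice (medians 0.08 and -0.24). Stat3 rose by 0.79 and 1.00 (adjusted p = 0.00233 and 0.00565), whereas Yap1 differed by -0.56 and -0.66 (adjusted p = 0.000301 and 0.00652) and Fbxo31, a ligase subunit for cyclin D1, by -0.57 and -0.72 (adjusted p = 0.00824 and 0.00911). The share of all genes called was 44.8% in H77L mice (22.4% higher, 22.4% lower) and 30.4% in C118F mice (13.7% higher, 16.6% lower). The median of all genes was -0.01 and -0.06, and the counts of the lists are read beside these values. Under bortezomib, where 23.6% of all genes were called in H77L and 27.5% in C118F mice, the list of CDK partners had 3 and 2 higher and 1 and 0 lower genes of 11 tested. The retinoblastoma and E2F list had 0 higher and 4 lower of 15 in H77L mice, and 3 higher and 5 lower of 17 in C118F mice. Proliferation genes had 2 and 4 higher and 0 lower of 13, and p53 targets 4 and 4 higher with 3 and 5 lower of 22 and 23. Regulators of p27 had 2 and 1 higher and 0 and 1 lower of 14, and regulators of D-type cyclins 1 and 1 higher with 5 and 4 lower of 15 and 16.

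**Figure D5:**
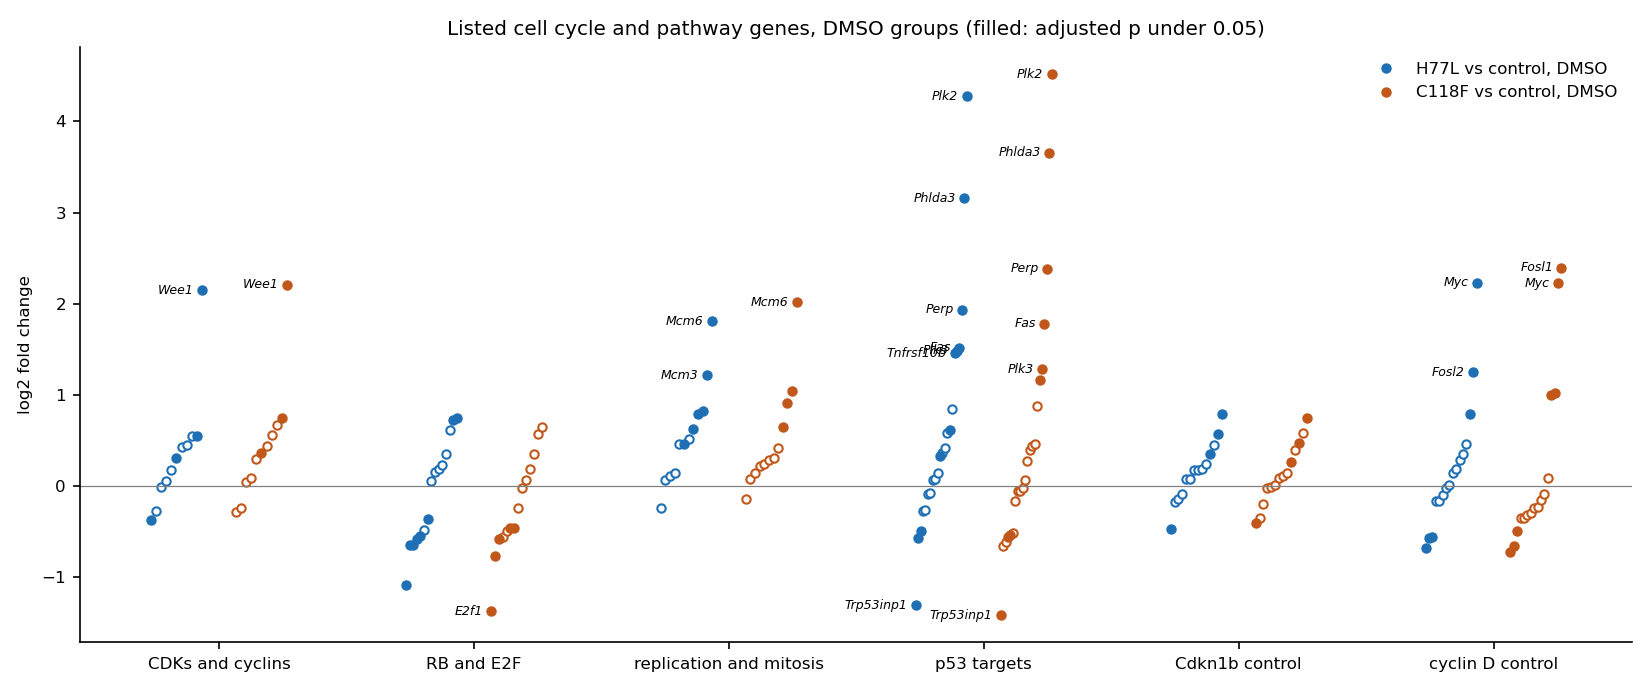
Differences in log2(TPM + 1) of the tested genes of 6 cell-cycle lists for H77L and C118F against control mice under DMSO, with 1 point per gene and filled points for an adjusted p under 0.05. The p53 targets reach furthest upward with Plk2 at 4.28 and 4.52, and E2f1 is the lowest called gene of the retinoblastoma and E2F list.

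Cdkn1c belongs to the imprinted cluster of distal chromosome 7, at 143012069 to 143014806 (GRCm39, minus strand). Of 20 genes of this region 10 were tested, of which 3 rose and 4 fell in H77L and 3 rose and 5 fell in C118F mice under DMSO. Over all genes tested, 22.4% rose and 22.4% fell in H77L mice, and 13.7% rose and 16.6% fell in C118F mice. Tnfrsf23, a decoy receptor, rose by 2.09 and 2.35 (adjusted p = 0.000109 and 8.77e-06) and Cars1, a cysteinyl-tRNA synthetase, by 0.67 and 0.68 (adjusted p = 0.00734 and 0.00784), while Cd81, a tetraspanin, differed by -0.59 and -0.57 (adjusted p = 0.0015 and 0.00441). The median over the region was -0.35 and -0.42. Of 12 imprinted growth genes elsewhere in the genome, 6 were tested, of which 5 rose in H77L mice, and 4 rose and 1 fell in C118F mice (medians 0.82 and 0.77). Igf2r, a receptor that clears Igf2, rose by 1.69 and 1.46 (adjusted p = 2.29e-06 and 0.000974), Ndn by 0.95 and 0.94 (adjusted p = 1.54e-05 and 0.000405) and Plagl1 by 1.64 and 1.38 (adjusted p = 0.000163 and 0.0172).

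Marker genes of podocytes and of other cells were tested in the same way, beside the 44.8% and 30.4% of all genes called. Podocyte markers had 3 of 19 higher and 11 lower in H77L mice, and 1 higher and 11 lower in C118F mice. Parietal markers had 4 of 5 tested higher in each line, the endothelial and mesangial list 1 of 3 higher in each, the tubule list 1 of 4 higher in H77L and 1 of 3 lower in C118F mice, and the leukocyte list 1 of 3 higher in H77L, and 1 of 4 higher and 1 lower in C118F mice. Pdgfrb, the most abundant endothelial and mesangial marker, had a mean of 14.4 TPM in DMSO-treated control, 247 TPM in H77L and 154 TPM in C118F mice. The leukocyte gene called higher was Csf1r in both lines (1.23 and 0.81, adjusted p = 0.00157 and 0.0206). Lyz2, the leukocyte marker with the highest mean TPM, went the other way (-2.67 and -3.00, adjusted p = 0.0614 and 0.0361). Its mean was 61.9 TPM in DMSO-treated control mice (1.49 to 285 TPM), 3.05 TPM in H77L and 1.24 TPM in C118F mice. Of the 14 leukocyte markers, 4 (Cd3e, S100a8, S100a9 and Itgam) were at 0 in every DMSO-treated H77L and C118F mouse. The part of these cells in the levels of Cdkn1a and Ccnd1 was not tested.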

How the data were processed

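Podocyte mRNA of 35 mice in 6 groups of genotype and treatment was analysed, with 1 library per mouse. Per the submitters' processing notes and the study's methods, the authors used Trim Galore 0.6.7 for trimming of single-end reads, STAR for alignment (GRCm39) and featureCounts 1.6.3 for counts on Ensembl 110, with 1 randomly chosen place kept for reads that map to several. The values deposited by the authors are TPM. The strand setting, the removal of duplicates and the step from counts to TPM are not given in the sources used here. The control group is labelled WT, and the design text gives its genotype as Lmx1b+/lox.

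Genes that exceeded 1 TPM in all mice of a compared group were fitted as log2(TPM + 1) with limma 3.58.1 (lmFit, eBayes with trend) in R 4.3.3, on the mice of the compared groups, and p-values were adjusted over all genes by the Benjamini-Hochberg method, with calls at an adjusted p under 0.05. Fold changes on this scale understate the change of low genes. Whole reads were recovered from the TPM steps (tolerance 0.02) for 86.8% of 23943 genes above 0 and for all 10 members. These reads gave the depth and were fitted with voom, an alternative chosen after the data were seen. Limits for a value of 0 assume 3 reads and cover counting error only. Relations among mice were tested with permutation tests (SciPy 1.17.1, two-sided). Alternatives were another filter or pseudocount, scaling, array weights, no trend, 1 fit of all mice, the mouse number as covariate, the cutoffs of the study and leaving out each mouse. The fits were tested on simulated data. Some items are not reported here.

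The members, the gene lists (written from general knowledge) and the tests were chosen with earlier results of these data known. Listed genes were named by a rule: the 3 with the lowest adjusted p among those called in the same direction in both lines under DMSO, and for marker lists the gene with the highest mean TPM. Cdk4, Cdk6, Mki67, Top2a, Tpx2, Pcna, Csf1r, Trp53inp1, Rrm2b and Ei24, and the markers at 0, were picked with their values known.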

Additional observations from a re-analysis of the deposited data

Results flagged for a closer look

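Dixon's criterion was applied to 55 sets of a member and a group, and 7 had a mouse far from the rest. Its chance rate of about 1 in 20 holds for independent, normally distributed sets. The sets here share mice, so the count cannot be read against that rate. For Cdkn2a, any read in a single mouse of a group meets the criterion. Mouse 6 of the DMSO-treated H77L group accounted for 4 of the 7. It had the lowest Cdkn1c of all mice (76.4 TPM, next in its group 191 TPM), the lowest Cdkn1b (2.17 TPM, next 4.28 TPM), the highest Cdkn2d (132 TPM, next 59.3 TPM) and the only reads of Cdkn2a (0.435 TPM, 0 in the others). Its podocyte marker sum of 8758 TPM was the lowest and its parietal sum of 449 TPM the highest of the group. Mouse 2 of the DMSO-treated control group had a Ccnd1 level of 14.4 TPM, with the next at 4.41 TPM, and a tubule marker sum of 1576 TPM. Mouse 2 of the bortezomib-treated control group stood apart in Ccnd2 (1.65 TPM, next 0.599 TPM), and mouse 5 of the DMSO-treated C118F group in Ccnd3 (27.4 TPM, next 36.8 TPM).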

How the results depend on the processing

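Cdkn1c in the 4 comparisons with control mice and Cdkn1a in those under DMSO kept their direction and call in all alternatives at an adjusted p under 0.05. Members called for H77L against control mice fell from 4 to 2 under DMSO with the mouse number as covariate or the cutoffs of the study, and from 2 to 1 under bortezomib with all mice in 1 fit or those cutoffs. For bortezomib against DMSO in H77L mice 0 became 1 with all mice in 1 fit and 2 with array weights, and 0 to 2 when a mouse was left out. For C118F against H77L mice under bortezomib 1 became 0 without the filter, with all mice in 1 fit, without the trend, with the mouse number or with the cutoffs, and 0 to 2 when a mouse was left out. The bortezomib response of H77L minus control gave 0 to 1 when a mouse was left out (1 without mouse 1 of the bortezomib-treated control group, where 275 genes were called against 0). With the mouse number as covariate, Cdkn2d in C118F against control mice under DMSO turned from 0.09 to -0.15, and Cdkn1c under bortezomib against DMSO in C118F mice from -0.19 to 0.28. Leaving out a mouse gave Cdkn2d values of -0.044 to 0.19. The within-group relation of Cdkn1a was weaker without the 2 farthest mice (r = -0.26) or with median-of-ratios scaling (r = -0.36), that of Cdkn1b turned to -0.019 without these mice, and that of Ccnd3 turned to 0.016 without them and to 0.044 with scaling. Apart from leaving out mice, 300 of 330 values of single members kept direction and call. Genes called over the whole table ranged from 2873 to 4989 for H77L and from 2463 to 4333 for C118F mice under DMSO. For bortezomib against DMSO in H77L mice 125 genes were called, 0 without the filter or without mouse 2 and 270 without mouse 1 of the bortezomib-treated group. The causes were not tested. No paired analysis was possible because each mouse has its own number and the replicate numbers only follow the order of the samples. Depth limited Cdkn2a, Cdkn2b and Cdkn2c, whereas Ccnd2 was left out by the filter on TPM.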

Other observations

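The genes whose pattern over the 6 group means was most like that of Cdkn1c, by distance between z scores among 11305 genes, were Nars2 (0.0878), a mitochondrial asparaginyl-tRNA synthetase gene on chromosome 7, the unnamed gene ENSMUSG00000113029 (0.0943) and Cldn5 (0.0969), a claudin. ENSMUSG00000113029 had a mean of 50.7 TPM in DMSO-treated control, 2.92 TPM in H77L and 2.91 TPM in C118F mice, and Nars2 had 39.1, 13 and 13.7 TPM. For Cdkn1a the closest genes were Smox (0.0739), a spermine oxidase, Serinc3 (0.136) and Rnase4 (0.217). For Ccnd1 they were Sema7a (0.202), Gdpd1 (0.224) and Fdps (0.230). The distance between Cdkn1a and Ccnd1 was 0.369. A distance over 6 means is a description of these groups.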
